A study of Homo sapiens with 9 samples.

Results

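SH-Sy5y cells, a human neuroblastoma line that divides in culture, were transfected for 48 h with a miR-1229-3p mimic, and polyadenylated RNA was sequenced. The genes described here are 48 genes of the cell division cycle and of DNA replication, listed by name for their known roles. They comprise 27 genes that act at the G1/S transition or in replication and 21 genes that act in G2 and mitosis, and all 48 were found among the 14943 genes of the count table. The Ctrl. group received 40 pmol of negative control oligonucleotide, the 10 nM group received 20 pmol of mimic plus 20 pmol of the control oligonucleotide, and the 20 nM group received 40 pmol of mimic and no control oligonucleotide. Each group had 3 libraries, and all cells were of the same line, seeded alike and transfected with Lipofectamine. The RNA of a pair of wells was pooled where possible, and nothing in the descriptions says that the libraries of a group came from separate cultures, so p-values measure only the spread between these libraries.

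A dividing cell decides in G1 whether to copy its DNA. D-type cyclins with CDK4 and CDK6, and then E-type cyclins with CDK2, phosphorylate the retinoblastoma protein, which releases E2F factors to transcribe the genes of DNA synthesis. Genes of G2 and mitosis are transcribed later, largely through the DREAM and MMB complexes and FOXM1, and their products drive the spindle, its checkpoint and cytokinesis. SH-Sy5y cells cycle continuously unless they are driven to differentiate, so genes of both phases are expressed in the bulk culture. In such RNA, fewer cells in a phase and less RNA per cell cannot be told apart.

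A microRNA pairs with its targets mainly through its seed, bases 2 to 8 from the 5′ end. The mature miR-1229-3p is shown with the seed in capitals (RefSeq, GRCh38.p14, chr5:179798278-179798300, minus strand), because the match of this seed is what was looked for in the members' 3′ UTRs.

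miR-1229-3p: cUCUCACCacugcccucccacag

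The longest annotated 3′ UTR of each gene (GENCODE 44) was searched for GGTGAGAA (8-mer), GGTGAGA or GTGAGAA (7-mers) and GTGAGA (6-mer), on the transcribed strand. A 7-mer or an 8-mer was present in 8 of the 48 members (16.7%), in 6 of the 27 G1/S and replication genes (22.2%) and in 2 of the 21 G2/M genes (9.52%). The share over all 13777 genes with a 3′ UTR was 22.6%, so the members as a whole did not hold more such matches than other genes. The members' median 3′ UTR was shorter (1008 bases) than that of all genes (1552 bases). The strongest match of each of the 8 members is printed with the matching bases in capitals. The coordinates are those of the capitals.

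CCND1 (8-mer, chr11:69652868-69652875, plus strand): tccttttataGGTGAGAAaaaaacaatc
BIRC5 (8-mer, chr17:78223836-78223843, plus strand): gggcttaccaGGTGAGAAgtgagggagg
E2F1 (7-mer, chr20:33676221-33676227, minus strand): cgtgtaggacGGTGAGAgcacttctgtc
CDK2 (7-mer, chr12:55972330-55972336, plus strand): ttatgaggcaGGTGAGAgatgtttgaat
CDC25A (7-mer, chr3:48158234-48158240, minus strand): ctgaggtcctGGTGAGAgcgttggaccc
E2F7 (7-mer, chr12:77023625-77023631, minus strand): gtaaatctgtGGTGAGAgaagcttcctt
RRM2 (7-mer, chr2:10130177-10130183, plus strand): cttcatatgtGTGAGAAgccgtttcatt
BUB1 (7-mer, chr2:110637733-110637739, minus strand): gcaagcatttGTGAGAAtaattcagaca

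CCND1 held an 8-mer and, further downstream, a 7-mer. A 6-mer without a longer match was found in another 7 members, all of the G1/S and replication class, and 33 members held none of these letters in the window searched.

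The libraries held between 17.4 and 28.2 M estimated counts each, where M is 1e+06. Library 3 of the 20 nM group stood apart from the other 8 in all genes. Its value on the surrogate variable, a per-library score meant for variation beyond the groups, was 0.907, against -0.242 to 0.0602 in the others. The score was not independent of the groups, since within each library number it rose from Ctrl. to 10 nM to 20 nM. Including it can therefore also shift the fitted differences between groups. Levels below are CPM as measured, that is, counts per 1e+06 counts of the library after TMM scaling, whereas fold changes come from a fit over all 9 libraries that includes this variable. The 2 can therefore differ in the 20 nM group, and values without library 3 are given where they bear on a result. The noradrenergic marker genes summed to 5091 to 5333 CPM in Ctrl., 5445 to 5525 CPM at 10 nM and 5200 to 5614 CPM at 20 nM, with DBH at 1510 CPM in Ctrl., but tyrosine hydroxylase (TH) was close to 0 at 0.598 CPM. The summed level of 7 mesenchymal-type neuroblastoma markers was 44.9 to 55.6 CPM in Ctrl., 45.7 to 53.3 CPM at 10 nM and 43.4 to 51.9 CPM at 20 nM. Their median fitted change at 20 nM was 0.19, and CD44, named here after its values were seen, rose from 1.36 CPM in Ctrl. to 3.18 CPM at 20 nM (1.31 ± 0.23, adjusted p = 0.00293). CD44 alone of the 7 had an adjusted p under 0.05 by edgeR's quasi-likelihood test (13.9% of all genes did). TAGLN, COL1A1 and SNAI2 were fitted lower (-0.22, -0.15 and -0.07), and FOSL1, YAP1 and COL1A2 higher (0.19, 0.25 and 0.63). The epithelial markers CDH1 and EPCAM summed to 0.931 to 1.57 CPM in Ctrl., to 0.914 to 1.64 CPM at 10 nM and to 1.3 to 2.37 CPM at 20 nM.

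Most members were lower after the mimic, by small amounts. At 20 nM, 40 of the 48 had a fitted value below Ctrl. (7478 of all 14943 genes did), with a median log2 fold change of -0.12, against -0.00016 over all genes. At 10 nM the same count was 42 of 48 (7444 of all genes), with a median of -0.08. By edgeR's quasi-likelihood test with adjustment over all 14943 genes, 9 of 48 members passed the threshold at 20 nM, 8 lower and 1 higher. Over all genes 13.9% passed in either direction, 6.08% lower and 7.80% higher, so that the excess among the members lay on the lower side (16.7%). E2F1, E2F2, CDK2, MCM7, GINS1, CCND1, CDC25A and TYMS fell and RB1 rose. These 9 are in the G1/S and replication class. Of the 21 G2/M genes, 0 passed at 20 nM by this test, by DESeq2 or by the likelihood-ratio test, and 7 had an unadjusted p under 0.05 (4187 of all 14943 genes). In a fit of the Ctrl. and 20 nM libraries alone 5 G2/M genes passed, all lower (1168 of all 14943 genes were called lower). Without 20 nM library 1 the fit called 2 of them lower, and without 20 nM library 3 it called 1 (558 and 1194 of all genes). With a replicate block in place of the surrogate variable, 3 G2/M and 3 G1/S and replication genes were called lower (897 of all genes). Of the 9 genes above, the block kept E2F2 alone.

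At 10 nM, 0 of 48 members passed the quasi-likelihood test (0.649% of all genes did), while 15 had an unadjusted p under 0.05, 14 of them lower (13.9% and 6.71% of all genes). DESeq2 and edgeR's likelihood-ratio test each called 5 members lower at 10 nM, where over all genes they called 113 and 202 lower. Between 20 nM and 10 nM, 0 members passed (2.79% of all genes) and 4 had an unadjusted p under 0.05 (14.9% of all genes). DESeq2 and the likelihood-ratio test called 1 each there, where over all genes they called 472 and 757. With the concentration as a number, 14 members passed, 13 lower and 1 higher (17.5% of all genes in either direction, 7.69% lower and 9.84% higher). MKI67, CDK1, WEE1, BUB1 and BUB1B, all of the G2/M class, joined the 9 genes called at 20 nM. The fitted fold changes of all members at both concentrations are drawn gene by gene for each class.

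**Figure D1:**
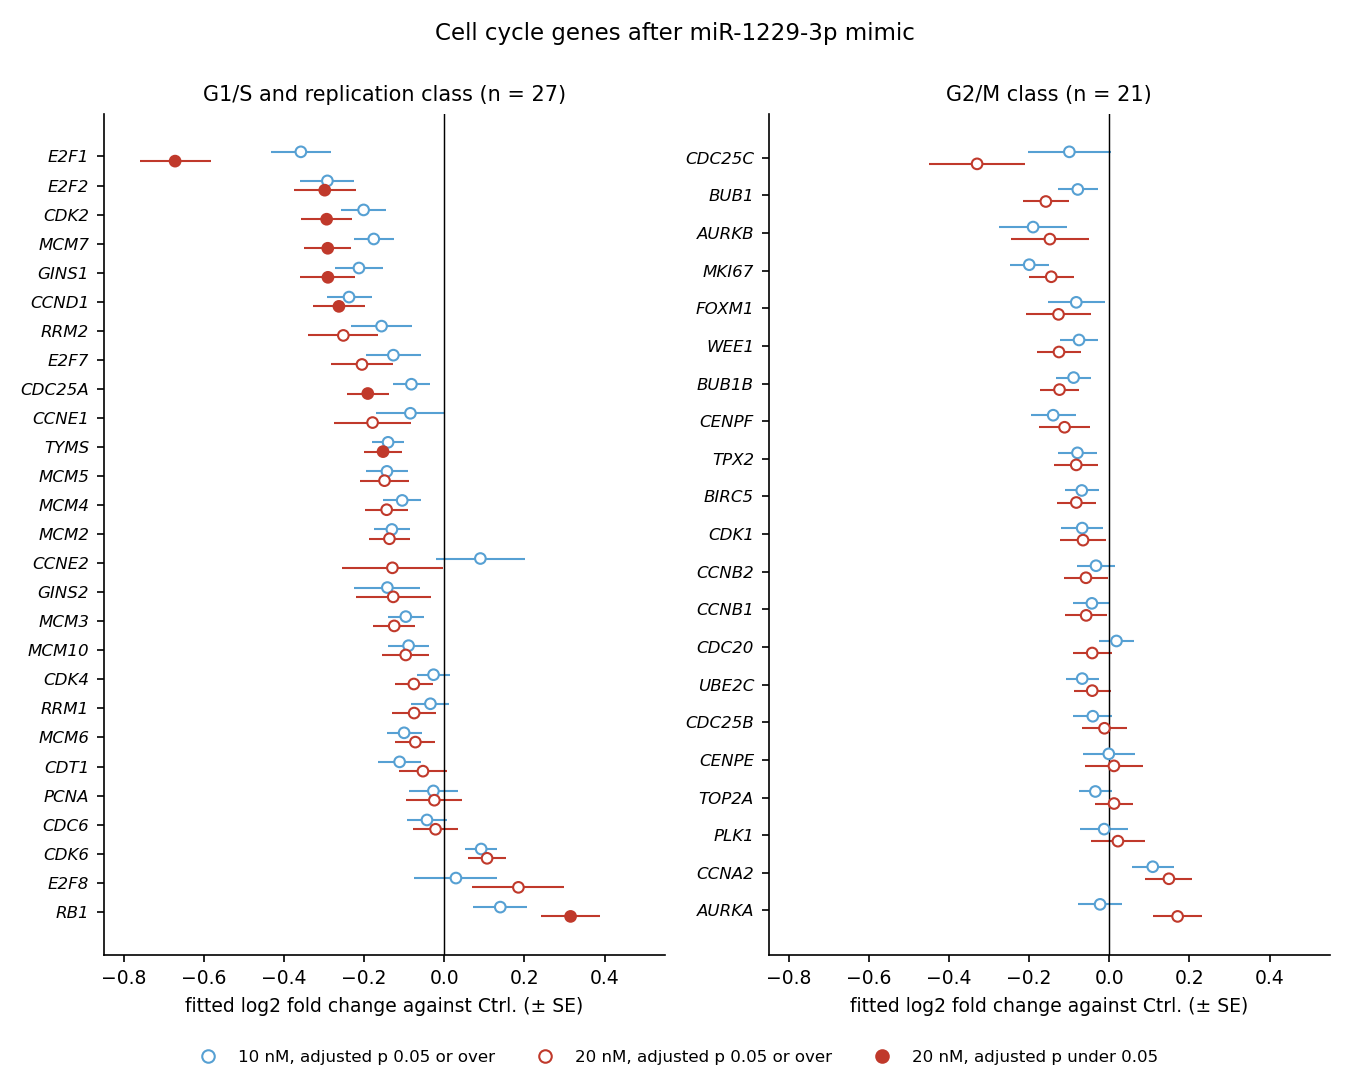
Fitted log2 fold change against Ctrl. (x axis, bars are standard errors) of the 27 G1/S and replication genes and the 21 G2/M genes, one gene per line, at 10 nM (blue) and 20 nM (red), filled where the adjusted p was under 0.05. The 9 filled points are all at 20 nM and in the left panel, and 40 of the 48 genes lie left of 0 at 20 nM.

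The count at 20 nM depended on single libraries. Without 20 nM library 3 the fit called 12 members, 11 lower and 1 higher (17.8% of all genes, 7.99% lower), and without that library and without the surrogate variable it called 8, 7 lower and 1 higher (13.4%, 6.01% lower). Without 20 nM library 2 it called 2. With all 9 libraries and no surrogate variable it called 0 (6.38% of all genes), 12 members having an unadjusted p under 0.05.

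E2F1 (ENSG00000101412, chr20:33675477-33686385, GRCh38), the transcription factor that the retinoblastoma protein restrains, had the largest fitted fall of any member at both concentrations. Its level was 116, 101 and 118 CPM in the Ctrl. libraries, 93.6, 83.4 and 99.9 CPM at 10 nM, and 71.9, 72.5 and 125 CPM at 20 nM. All 10 nM libraries lay below all Ctrl. libraries, and 20 nM libraries 1 and 2 were lower still, while 20 nM library 3 lay above every Ctrl. library. The fitted log2 fold change was -0.67 ± 0.09 at 20 nM (SE, adjusted p = 0.000388) and -0.36 ± 0.08 at 10 nM (adjusted p = 0.0566). Without 20 nM library 3 and without the surrogate variable the value at 20 nM was -0.63 (adjusted p = 0.000294), and with all libraries and no surrogate variable it was -0.31 (adjusted p = 0.304). The call held in 9 of 9 fits that left out 1 library with the surrogate variable kept. E2F1 carries one of the 7-mers printed above.

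E2F2, a second activator of the family, was at 82, 71.5 and 76.8 CPM in Ctrl., 62.7, 60 and 67.9 CPM at 10 nM and 66.4, 58.8 and 70 CPM at 20 nM. Neither treated group overlapped Ctrl. The fitted change was -0.30 ± 0.08 at 20 nM (adjusted p = 0.0218) and -0.29 ± 0.07 at 10 nM (adjusted p = 0.0781), so that it was about as low at 10 nM as at 20 nM. E2F7, an atypical family member that represses E2F targets and that carries a 7-mer, was at 31.9, 29.5 and 29.8 CPM in Ctrl., 28.7, 26.1 and 27.9 CPM at 10 nM and 27.6, 24.5 and 24.5 CPM at 20 nM. Neither treated group overlapped Ctrl., but the change of -0.21 ± 0.08 at 20 nM did not pass (adjusted p = 0.0992).

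CCND1 (ENSG00000110092, chr11:69641156-69654474) encodes cyclin D1, the partner of CDK4 and CDK6 in early G1, and was among the most abundant members per kilobase of transcript. Its level was 917, 898 and 1035 CPM in Ctrl., 789, 787 and 905 CPM at 10 nM and 811, 808 and 1010 CPM at 20 nM. Libraries 1 and 2 of each treated group lay below all Ctrl. libraries, and library 3, which was the highest of every group, overlapped Ctrl. The fitted change at 20 nM was -0.26 ± 0.06 (adjusted p = 0.0171) and at 10 nM -0.24 ± 0.06 (adjusted p = 0.0846). Without 20 nM library 3 and without the surrogate variable it was -0.23 (adjusted p = 0.0502).

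The kinase genes that work with cyclin D1 did not pass. CDK4 was at 223, 241 and 232 CPM in Ctrl. and 220, 226 and 264 CPM at 20 nM, with a fitted change of -0.08 ± 0.05 (adjusted p = 0.326). CDK6 was at 409, 382 and 380 CPM in Ctrl. and 425, 402 and 327 CPM at 20 nM, with a fitted change of 0.11 ± 0.05 (adjusted p = 0.154). The ranges overlapped for both genes. CDK6 held a pair of 6-mers in a 3′ UTR of 10219 bases.

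RB1 (ENSG00000139687, chr13:48303744-48599436), whose product is the retinoblastoma protein and the brake on E2F factors, was the only member called higher. Its level was 78.8, 80.2 and 88.4 CPM in Ctrl., 83.5, 92.7 and 89.2 CPM at 10 nM and 103, 101 and 75.2 CPM at 20 nM. In 20 nM libraries 1 and 2 it exceeded every Ctrl. library, and in library 3 it was below every one. The fitted change was 0.31 ± 0.07 at 20 nM (adjusted p = 0.0142) and 0.14 ± 0.07 at 10 nM (adjusted p = 0.376). It remained at 0.31 without library 3 and without the surrogate variable (adjusted p = 0.0058). Over 19 alternative fits at 20 nM the RB1 value ranged from 0.17 to 0.39, and 15 of them called it.

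CDK2 and CDC25A act together late in G1, CDC25A removing the phosphates that hold CDK2 inactive, and both hold a 7-mer. CDK2 (ENSG00000123374, chr12:55966781-55972789) was at 78.7, 70.8 and 77.1 CPM in Ctrl., 69.5, 64.2 and 65.9 CPM at 10 nM and 60.3, 63.6 and 70.5 CPM at 20 nM. Both treated groups lay below Ctrl. without overlap. The fitted change was -0.29 ± 0.06 at 20 nM (adjusted p = 0.00893) and -0.20 ± 0.05 at 10 nM (adjusted p = 0.13). CDC25A was at 67.1, 64.4 and 68.6 CPM in Ctrl., 64.1, 62 and 65.9 CPM at 10 nM and 58.9, 59.1 and 67.9 CPM at 20 nM. Libraries 1 and 2 of both treated groups lay below all Ctrl. libraries and library 3 of both overlapped them. The change was -0.19 ± 0.05 at 20 nM (adjusted p = 0.0283).

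**Figure D2:**
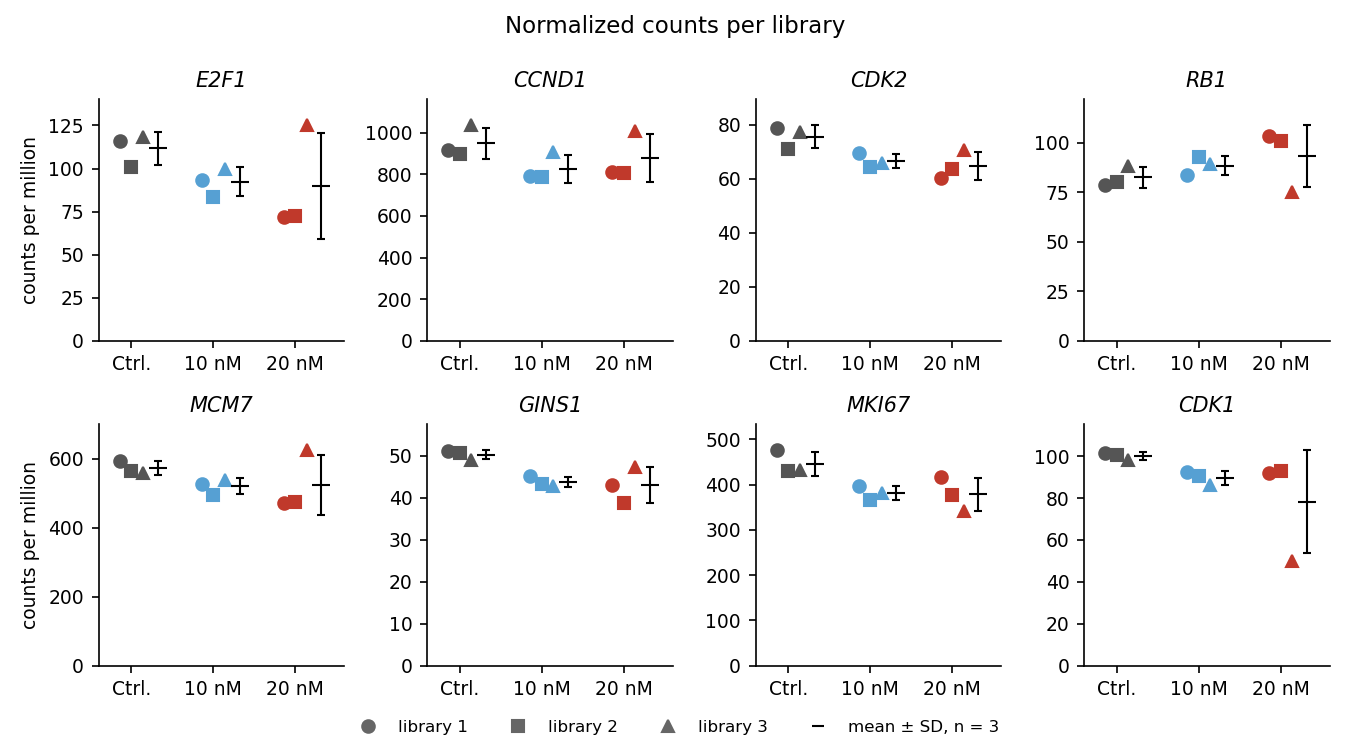
TMM-scaled CPM (y axis) of 8 members in each of the 9 libraries, with a symbol for each library number and the mean ± SD of each group. In E2F1, CCND1 and MCM7 the 20 nM library 3 lies well above libraries 1 and 2, and in RB1 and CDK1 well below them.

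The MCM2 to MCM7 proteins form the helicase that unwinds DNA at the fork, and the GINS complex activates it. MCM7 (ENSG00000166508, chr7:100092233-100101940) was at 595, 563 and 558 CPM in Ctrl., 527, 495 and 539 CPM at 10 nM and 471, 475 and 625 CPM at 20 nM. It did not overlap Ctrl. at 10 nM, and at 20 nM libraries 1 and 2 were lower still while library 3 was the highest of the 9. The fitted change at 20 nM was -0.29 ± 0.06 (adjusted p = 0.00575), and -0.28 without library 3 and without the surrogate variable (adjusted p = 0.00325). Over 19 alternative fits at 20 nM it ranged from -0.33 to -0.13, and 16 of them called it. MCM7 was the only one of the 6 helicase genes that passed at 20 nM. All 6 were fitted below Ctrl., with a median of -0.14 and a range of -0.29 to -0.07. MCM2 was at 236, 221 and 226 CPM in Ctrl. and 209, 213 and 277 CPM at 20 nM (-0.14 ± 0.05, adjusted p = 0.0971). In 20 nM libraries 1 and 2, 5 of the 6 helicase genes lay below all Ctrl. libraries. In library 3, 3 of the 6 lay above them and 0 below.

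GINS1 was at 51.1, 50.6 and 49 CPM in Ctrl., 45.2, 43.4 and 42.8 CPM at 10 nM and 43, 38.7 and 47.2 CPM at 20 nM. Every treated library was below every Ctrl. library. The fitted change was -0.29 ± 0.07 at 20 nM (adjusted p = 0.0143). PCNA, the sliding clamp of the DNA polymerases, was at 162, 150 and 172 CPM in Ctrl. and 156, 159 and 123 CPM at 20 nM. Its fitted change was -0.02 ± 0.07 (adjusted p = 0.866), and library 3 was the only 20 nM library below the Ctrl. range.

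TYMS, which makes the thymidylate needed for DNA synthesis, was at 211, 207 and 212 CPM in Ctrl., 193, 192 and 188 CPM at 10 nM and 194, 183 and 196 CPM at 20 nM. All 6 treated libraries lay below Ctrl. and the 10 nM and 20 nM groups overlapped each other. The change at 20 nM was -0.15 ± 0.05 (adjusted p = 0.0452), close to the threshold. RRM2, the regulated subunit of ribonucleotide reductase and a holder of a 7-mer, was at 271, 247 and 288 CPM in Ctrl. and 238, 217 and 255 CPM at 20 nM (-0.25 ± 0.09, adjusted p = 0.0747). It did not pass and its groups overlapped.

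Leaving out 1 library at a time, with the surrogate variable kept, ended the 20 nM call of TYMS in 6 of 9 fits, of CDC25A in 4, of CCND1 and RB1 in 2 each and of CDK2, E2F2, MCM7 and GINS1 in 1 each. Removal of 20 nM library 2 ended the call of 7 of the 9 genes, all but E2F1 and CDK2.

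MKI67, which encodes the Ki-67 antigen of dividing cells, was at 476, 430 and 432 CPM in Ctrl., 396, 366 and 382 CPM at 10 nM and 416, 377 and 342 CPM at 20 nM. Both treated groups lay below Ctrl. without overlap, and the 10 nM libraries were about as low as the 20 nM libraries. The fitted change was -0.20 ± 0.05 at 10 nM (adjusted p = 0.0908) and -0.14 ± 0.05 at 20 nM (adjusted p = 0.107), and the trend with concentration passed (-0.15 ± 0.05 per 20 nM, adjusted p = 0.0427).

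CDK1, the kinase that starts mitosis, was at 102, 100 and 98.2 CPM in Ctrl., 92.6, 90.6 and 86 CPM at 10 nM and 92, 92.9 and 49.8 CPM at 20 nM. Every treated library was below every Ctrl. library, and 20 nM library 3 was far below the rest. The fitted change at 20 nM was -0.07 ± 0.06 (adjusted p = 0.514) and -0.12 without that library and without the variable (adjusted p = 0.129). Its trend with concentration passed (-0.20 ± 0.06 per 20 nM, adjusted p = 0.0293) but not without library 3 (adjusted p = 0.15). CCNB1, the cyclin B1 that CDK1 needs, was at 121, 122 and 126 CPM in Ctrl. and 123, 114 and 119 CPM at 20 nM, with a change of -0.06 ± 0.05 (adjusted p = 0.521).

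WEE1, which holds CDK1 inactive, was at 77.6, 69.8 and 70.6 CPM in Ctrl. and 66.8, 63.5 and 53.4 CPM at 20 nM, without overlap. The spindle checkpoint kinase gene BUB1, which holds a 7-mer, was at 68.1, 69.5 and 72.2 CPM in Ctrl. and 63.4, 61 and 55.5 CPM at 20 nM. Its partner in the checkpoint BUB1B was at 96.5, 91.7 and 90.8 CPM in Ctrl. and 86.8, 81.1 and 73.9 CPM at 20 nM. All 3 genes were lower in every 20 nM library than in any Ctrl. library, with library 3 the lowest, and passed in the trend (adjusted p of 0.0398, 0.0374 and 0.0392) but not at 20 nM (adjusted p of 0.158, 0.0869 and 0.117). BIRC5, which encodes survivin and holds an 8-mer, was at 185, 171 and 179 CPM in Ctrl. and 170, 168 and 167 CPM at 20 nM (-0.08 ± 0.05, adjusted p = 0.307).

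The trend called 5 of the 21 G2/M genes lower and 2 without 20 nM library 3 (all genes, 18.5% in either direction and 8.37% lower). Without that library and without surrogate variables edgeR's quasi-likelihood test called 0 of them (all genes, 13.4% and 5.96% lower). An unadjusted p under 0.05 was found in 9 of them, with no share of all genes given for that fit. The trend's count over all members, 14, was 8 without Ctrl. library 1 and 6 without Ctrl. library 3. It was 5 without 20 nM library 2 and 22 without 20 nM library 1. Over all genes the fits that left out 1 library called 1668 to 3970. With all libraries and no surrogate variable the member count was 0 (8.27% of all genes called). In that fit 14 members had an unadjusted p under 0.05, and the share of all genes at that p is not given for it. In the fit with surrogate variables 23 members had an unadjusted p under 0.05 (30.8% of all genes).

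At 10 nM, 15 of 48 members were lower in all 3 libraries than in every Ctrl. library, against 9.90% of all genes, and 0 were higher (10.1% of all genes). These were 9 of the 27 G1/S and replication genes and 6 of the 21 G2/M genes. At 20 nM, 16 members were lower without overlap (13.7% of all genes), 8 in each class, and 1 was higher (15.2% of all genes). That gene was AURKA, a mitotic kinase gene named here after its values were seen, at 44, 41 and 42.2 CPM in Ctrl. and 48.5, 46.6 and 50 CPM at 20 nM (0.17 ± 0.06, adjusted p = 0.0895). In libraries 1 and 2 alone, 26 of 48 members were below all Ctrl. libraries (21.7% of all genes), 17 of the 27 G1/S and replication genes and 9 of the 21 G2/M genes.

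The comparison of the G1/S and replication genes with the G2/M genes was made per library, as the mean over each class of log2 CPM minus the mean of the Ctrl. libraries. At 10 nM the G1/S and replication mean was -0.10 ± 0.04 (SD, n = 3) and the G2/M mean -0.08 ± 0.04, a difference (G2/M minus G1/S) of 0.01 ± 0.03. Both class means were below Ctrl. in all 3 of these libraries, and their difference was smaller than its own spread in Ctrl. (SD 0.02). At 20 nM the difference was 0.08 in library 1, 0.03 in library 2 and -0.18 in library 3, with a mean of -0.02 ± 0.14. It had one sign in libraries 1 and 2 and the other in library 3, and no order of the classes can be read from the group.

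**Figure D3:**
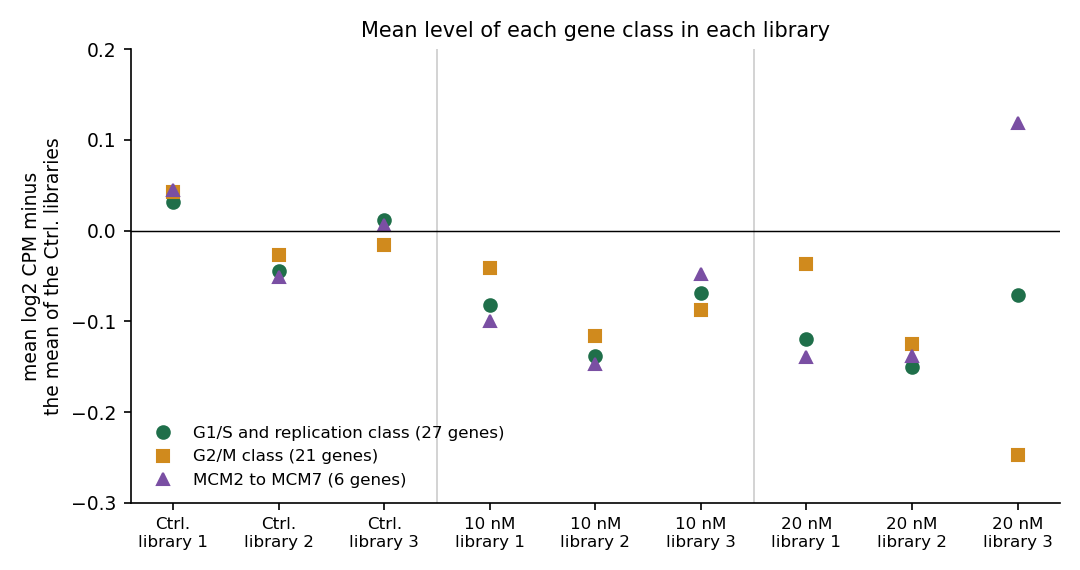
Mean over each gene class of log2 CPM minus the mean of the Ctrl. libraries (y axis) in each of the 9 libraries. The 10 nM points lie between -0.15 and -0.04, and in 20 nM library 3 the G2/M class is at -0.25 while MCM2 to MCM7 are at 0.12.

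In 20 nM library 3 the G2/M mean was -0.25 and the mean of MCM2 to MCM7 was 0.12, whereas in libraries 1 and 2 the helicase genes were at -0.14 in both. The members of library 3 were spread out by base composition. Across the 48 members, its difference from the mean of libraries 1 and 2 (log2 CPM) correlated with the GC content of the canonical transcript at r = 0.76, as a description over genes of one library and not over replicates. Across 14859 genes with an annotated transcript r was 0.47. The 6 members under 40% GC had a median difference of -0.49 and the 11 members over 55% GC one of 0.29, beside -0.34 and 0.24 over all genes of those ranges. CDK1 (35.4% GC) and CENPE (35.1% GC) were the lowest and E2F1 (61.6% GC) the highest. In CENPE, a kinesin gene named here after its values were seen, library 3 was at 30.3 CPM against 68.1 and 62.9 CPM in libraries 1 and 2. The part of base composition in the fitted changes was not tested. Library 3 lay above all Ctrl. libraries in 11 members and below all of them in 28 (41.0% and 40.0% of all genes). The 28 were 13 G1/S and replication genes and 15 G2/M genes.

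**Figure D4:**
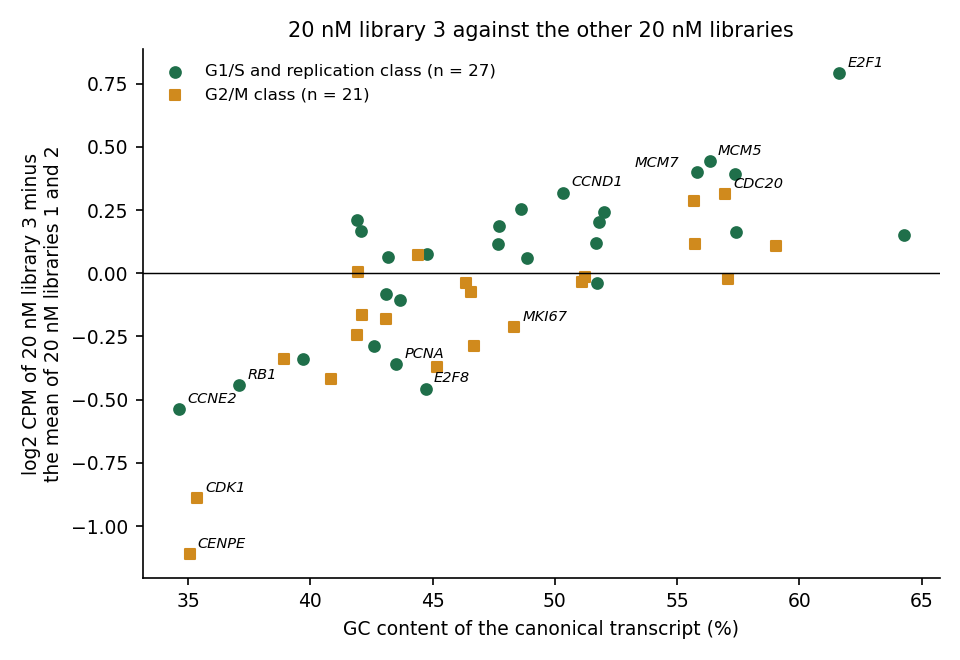
Difference in log2 CPM between 20 nM library 3 and the mean of 20 nM libraries 1 and 2 (y axis) against the GC content of each member's canonical transcript in percent (x axis), with selected genes named. The difference rises from CENPE and CDK1 at about 35% GC to E2F1 at 61.6% GC.

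Among the members with a 7-mer or an 8-mer, 4 of 8 fell at 20 nM (CCND1, CDK2, CDC25A and E2F1) and 5 of 8 in the trend, with BUB1. Of the 33 members with no match, 2 fell at 20 nM and 6 in the trend. Of the 7 with a 6-mer alone, 2 fell at 20 nM and 2 in the trend. The medians at 20 nM were -0.23 with a 7-mer or 8-mer, -0.14 with a 6-mer and -0.08 with none. Of all genes with a 7-mer or 8-mer, 10.5% were called lower at 20 nM and 13.4% in the trend. The share at 20 nM was 6.54% of those with a 6-mer alone and 4.58% of those without a match. In the trend these shares were 8.84% and 5.49%. The medians over all genes at 20 nM were -0.02, 0.01 and 0.01, so the medians of members of each kind lay below the genes of the same kind. The members without a match that fell at 20 nM were MCM7 and TYMS, and those with a 6-mer were E2F2 and GINS1.

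The members' promoters were compared as well, because the classes are known to be transcribed through different sites. In RefSeq's promoter sequences (GRCh38.p14, 250 bases before to 50 after the start), found for 36 members, an E2F motif was defined as TTTCCCGC, TTTCGCGC, TTTGCCGC or TTTGGCGC, the cell cycle homology region (CHR) as TTTGAA and the CCAAT box as CCAAT, on either strand. The E2F motif was present in 13 of 21 G1/S and replication promoters (61.9%) and in 1 of 15 G2/M promoters, that of CDK1. It was present in 5.19% of the 11209 promoters of genes in the count table. The CHR was present in 8 of 15 G2/M promoters (53.3%) and 1 of 21 G1/S and replication promoters, against 9.73%. A CHR together with a CCAAT box was present in 7 of 15 G2/M promoters, against 4.09%. Overlapping E2F matches on the 2 strands, as in MCM2 and MCM6, were counted once per promoter.

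**Figure D5:**
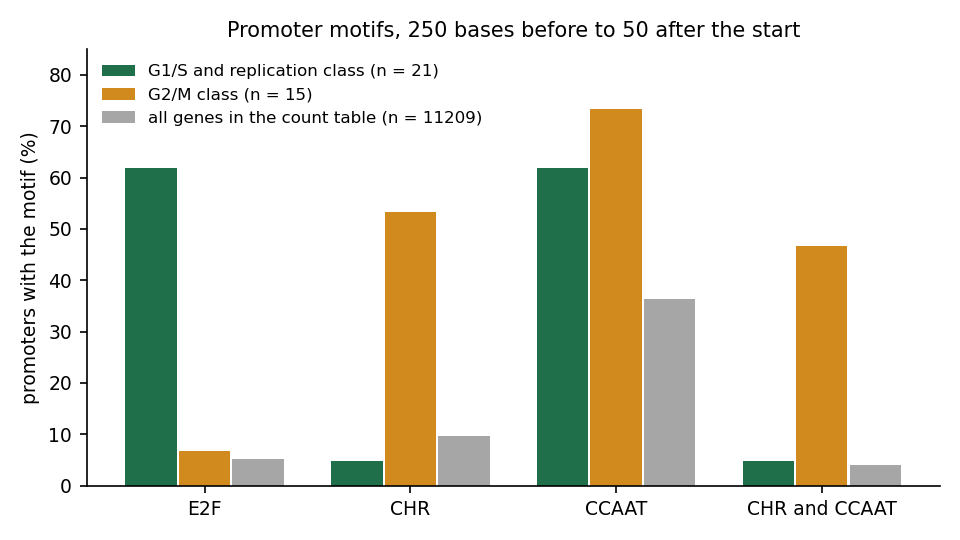
Share of promoters in percent (y axis, from 0) that hold an E2F motif, a CHR, a CCAAT box, or both a CHR and a CCAAT box, for the 21 G1/S and replication promoters, the 15 G2/M promoters and the 11209 promoters of genes in the count table. The E2F bar is tallest for the G1/S and replication class (61.9%) and the CHR bar for the G2/M class (53.3%).

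For each member that fell at 20 nM and has such a motif, the E2F motif is printed in capitals with its flanks, with the coordinates of the capitals. E2F1 and MCM7 each held 2 E2F motifs, and MKI67 held 2 CHRs, of which 1 is shown. A CHR is shown for 3 of the G2/M genes that passed in the trend.

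E2F1 (E2F motif, chr20:33686398-33686405, minus strand): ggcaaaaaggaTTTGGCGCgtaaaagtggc
E2F2 (E2F motif, chr1:23531268-23531275, minus strand): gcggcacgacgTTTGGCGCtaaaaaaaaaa
CDC25A (E2F motif, chr3:48188454-48188461, minus strand): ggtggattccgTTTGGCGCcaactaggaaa
MCM7 (E2F motif, chr7:100101399-100101406, minus strand): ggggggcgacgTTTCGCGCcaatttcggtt
GINS1 (E2F motif, chr20:25407678-25407685, plus strand): agctttgttcgGCGCCAAAgcgcggagcgg
TYMS (E2F motif, chr18:657614-657621, plus strand): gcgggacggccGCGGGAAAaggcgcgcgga
MKI67 (CHR, chr10:128126465-128126470, minus strand): tagcgccagaaTTTGAAtcttcgttttc
CDK1 (CHR, chr10:60778170-60778175, plus strand): agtataataaaTTTGAActgtgccaatg
BUB1B (CHR, chr15:40161046-40161051, plus strand): ggaccgttaaaTTTGAAacttggcggct

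Of the 14 members with the E2F motif, 6 fell at 20 nM and the median change was -0.13. Of the 22 members without it, RB1 alone passed, higher, and the median was -0.08. CCND1 and CDK2, which also fell, are not among the 36 promoters. Of 568 other genes with it, 5.99% were called lower at 20 nM and 5.28% higher, with a median of -0.02, and of 10605 other genes without it, 6.28% were called lower and 8.45% higher, with a median of 0.01. This count was made after the members' values were known.

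Other genes of the same pathways were taken from 4 further lists, whose counts at 20 nM stand against 13.9% of all genes called. Of 9 CDK inhibitors and pocket proteins in the table, which hold back the cyclin kinases or bind E2F factors, 0 passed at 20 nM. An unadjusted p under 0.05 was found in 4 of the 9 (4187 of all 14943 genes). DESeq2 and the likelihood-ratio test called 1 of them each, where over all genes they called 1826 and 2556. Their median was -0.03. Of 15 other G1/S regulators, 1 fell and 1 rose. CKS1B, a subunit of the cyclin kinases, was at 135, 125 and 125 CPM in Ctrl. and 107.2, 109 and 114 CPM at 20 nM (-0.25 ± 0.05, adjusted p = 0.00833). E2F5, a factor that works with the pocket proteins as a repressor, was at 18.8, 18.9 and 19.3 CPM in Ctrl., 20.7, 23 and 23 CPM at 10 nM and 27.7, 25.9 and 34.9 CPM at 20 nM. It was higher at each step without overlap (0.47 ± 0.08 at 20 nM, adjusted p = 0.00148), the opposite direction to E2F1 and E2F2.

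Of 42 further genes of the replication machinery, 4 fell and 1 rose at 20 nM, with a median of -0.08. POLA1, the catalytic subunit of the priming polymerase, was at 52.4, 48 and 51.3 CPM in Ctrl. and 43.4, 39.8 and 44.7 CPM at 20 nM (-0.28 ± 0.07, adjusted p = 0.0131). Its 20 nM libraries were all below its Ctrl. libraries. POLD2, a subunit of the lagging-strand polymerase, rose from 183, 179 and 175 CPM to 214, 217 and 308 CPM (0.25 ± 0.06, adjusted p = 0.0123).

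Of 38 genes of the kinetochore, the spindle checkpoint and cytokinesis, 5 fell and 2 rose at 20 nM, with a median of -0.08. In the trend 9 fell and 1 rose (7.69% and 9.84% of all genes). ANLN, which encodes the scaffold anillin of the contractile ring, was at 100, 96.6 and 103 CPM in Ctrl., 80.7, 78.3 and 78.8 CPM at 10 nM and 70.7, 68.3 and 51.1 CPM at 20 nM. The 3 groups did not overlap, and ANLN passed in every comparison (-0.29 ± 0.05 at 10 nM, adjusted p = 0.0117, and -0.50 ± 0.05 at 20 nM, adjusted p = 7.4e-05). RACGAP1, a regulator of the same ring, was at 138, 134 and 141 CPM in Ctrl. and 111, 105 and 104 CPM at 20 nM (-0.34 ± 0.05, adjusted p = 0.000612). BUB3, a checkpoint partner of BUB1 whose 3′ UTR holds an 8-mer, was at 146, 148 and 148 CPM in Ctrl. and 127, 125 and 116 CPM at 20 nM (-0.22 ± 0.04, adjusted p = 0.00501).

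Per kilobase of canonical transcript the Ctrl. level of the members ran from 3.06 CPM in CCNE2 to 232 CPM in MCM7, with CCND1 next at 224 CPM, and no member was at 0 in any library (lowest value 4.94 CPM, in CCNE2). Of the members that passed, CCND1, CDK2, MCM7, TYMS and GINS1 overlap another measured gene on the opposite strand and BUB1B overlaps PAK6 on the same strand. Whether strand was used in counting is not given in the sources used here, so reads of such pairs may not be told apart.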

How the data were processed

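RNA of 9 SH-Sy5y libraries (Ctrl., 10 nM and 20 nM, 3 each, grouped by sample title) was sequenced after polyA selection. The authors quantified reads with salmon on GRCh38.p13 with Ensembl annotation 107, summed them by gene symbol, removed low genes with filterByExpr and deposited estimated counts of 14943 genes, of which 88.8% of the values are not whole. The authors' deposited log2 table corrected for surrogate variables, and their tables of comparisons (log2 fold change and p-value per gene), were not used here.

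Counts were rounded and tested with edgeR 4.0.16 (quasi-likelihood test, TMM, all 9 libraries, Benjamini-Hochberg adjustment over all 14943 genes, threshold 0.05) in R 4.3.3. Surrogate variables came from sva 3.50.0 on log2 CPM (prior count 2), 1 in the fit by group and 2 in the fit by concentration. Fold changes of the latter are per 20 nM. The number of variables was estimated but held between 1 and 3, so that the main fits always used at least 1. The second variable of the fit by concentration was 0.827 in 10 nM library 2, against -0.392 to 0.209 in the others. The standard error of a log2 fold change was obtained from it and its F statistic. The tests were also run on simulated data with known changes, and the outcome is not reported here. The simulated deviation of 20 nM library 3 was random over genes and did not follow GC content, unlike the measured one. Alternatives were other scalings, filters, numbers of surrogate variables and tests (DESeq2 1.42.0, likelihood ratio), the compared groups alone, a replicate block and leaving out each library. Annotation was GENCODE 44, matched by identifier for 14105 genes and by symbol for 754. The libraries totalled 17.4 to 28.2 M counts each, and counting error was not separated from the spread between libraries. The standard error at 20 nM was 0.13 for CCNE2 (8.18 CPM in Ctrl.) and 0.06 for CCND1 (950 CPM in Ctrl.).

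Genes described individually were every member called in any comparison, 10 members fixed by name, every member with a 7-mer or 8-mer, and up to 3 called genes per further list, of which 1 is not reported here. The members and lists were chosen with earlier results of these data known.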

Additional observations from a re-analysis of the deposited data

How the results depend on the processing

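Of the members called at 20 nM (9), the fit of the 2 compared groups alone gave 15, the fit with no surrogate variable 0, and the fits leaving out 1 library 2 to 12. At 10 nM (0), 2 surrogate variables gave 2, scaling by library totals 1, the filter of at least 1 CPM in 3 libraries 1, DESeq2 5, the likelihood-ratio test 5, the compared groups alone 4, and leaving out 1 library 0 to 2. Between 20 nM and 10 nM (0), DESeq2, the likelihood-ratio test, the compared groups alone and the fit without 20 nM library 3 and without surrogate variables (chosen after seeing the data) gave 1 each, and leaving out 1 library 0 to 1. In the trend (14), no surrogate variable gave 0, the fit without 20 nM library 3 and without surrogate variables 9, and leaving out 1 library 5 to 22. The class medians kept their sign in all alternatives at 10 nM, at 20 nM and in the trend, but not their order. At 20 nM the G2/M median was -0.066, above that of the G1/S and replication class (-0.14). It was -0.126 with no surrogate variable, -0.123 with the compared groups alone and -0.147 without 20 nM library 1, each slightly below the G1/S and replication median of the same fit (-0.116, -0.122 and -0.141). Between 20 nM and 10 nM, where they were -0.03 (G1/S and replication) and 0.0021 (G2/M), the G1/S and replication median became 0.00032 with no surrogate variable and ranged from -0.046 to 0.0033 on leaving out 1 library. The G2/M median became -0.031 with no surrogate variable, -0.0022 with RLE scaling, -0.00053 with library totals, -0.0039 with DESeq2 and -0.0037 with the CPM filter, and ranged from -0.073 to 0.018 on leaving out 1 library. Causes were not tested.

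Over all genes, no surrogate variable gave 5, 954, 67 and 1236 calls (10 nM, 20 nM, 20 nM against 10 nM, trend), in place of 97, 2074, 417 and 2620. At 10 nM DESeq2 gave 218, the likelihood-ratio test 390 and the compared groups alone 268, and the likelihood-ratio test gave 757 between the concentrations. Leaving out 1 library gave 34 to 160, 1074 to 2656, 111 to 462 and 1668 to 3970.

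Libraries of the groups share replicate numbers. In 8 of 9 same-numbered pairs the deviations from the group means correlated at 0.107 to 0.185, and at 0.0288 in the remaining pair. Pairs of unlike number correlated at -0.17 to 0.0321. What the numbers stand for is not stated in the sources used here, and the main fit did not pair the samples. Whether they should be paired cannot be settled from these values. Each of the 9 libraries correlated best with one of its own number. A replicate block in place of the surrogate variables called 0 members at 10 nM, 6 at 20 nM, 0 between the concentrations and 7 in the trend (all lower). Of the 9 members called at 20 nM it kept E2F2 alone, with adjusted p of 0.0628 for CDK2, 0.108 for E2F1 and 0.344 for RB1, and it called E2F7, RRM2, MKI67, WEE1 and BUB1B. The class medians at 20 nM were then -0.12 (G1/S and replication) and -0.127 (G2/M). It called 3, 2039, 124 and 2444 genes in all, and the G2/M median between the concentrations became -0.034 under the block.

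Across the 22 members described individually, 1650 values under alternatives were compared with the reported ones. The call was the same in 1475, lost in 109 and gained in 66, and a call turned in direction in 0. Within the 1475, the sign of the fitted value changed in 70, with no call in either fit.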
